A study of Mus musculus with 7 samples.

Results

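Secondary granules, also called specific granules, are the storage organelles that neutrophils fill late in their development in the bone marrow. The 10 genes described here encode contents of these granules and surface proteins that appear at the same stage: Ltf, Camp, Ngp, Lcn2, Chil3, Cd177, Mmp8, Lyz2, Ly6g and Pglyrp1. They were taken by symbol from the 51789 genes of the deposited count table. All 10 were found, and all 10 were among the 12506 genes that passed the filter on low counts. RNA came from mouse granulocytes (neutrophils, eosinophils and basophils) and was read as tags near the 3′ end of polyA transcripts. There were 4 libraries wild type for Alox15 and 3 libraries knockout for Alox15, which encodes arachidonate 15-lipoxygenase, and all 7 were labelled untreated. The sources used here do not give strain, age, tissue of origin, sorting or which part of Alox15 was deleted.

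Transcription of most of these genes is switched on mainly in myelocytes and metamyelocytes, under the factor C/EBP epsilon. For many of them it falls again as the cell matures, though to different degrees. The granule proteins among their products stay in the mature cell, so a circulating neutrophil can carry much of the protein and less of the mRNA than its precursors. For this reason the mRNAs are commonly read as marks of late precursors and young neutrophils. Lyz2, the lysozyme gene, is an exception, since monocytes and macrophages transcribe it too, and some macrophages make Chil3.

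Total counts ran from 3228292 to 5657192 per library. Alox15 had 1 count in knockout 1 and 0 in the other 6 libraries, so it does not check the genotype labels. Knockouts 2 and 3 differed from the other 5 libraries in the stem of their sample descriptions and in sex-linked transcripts. The RNA of the inactive X chromosome, Xist, stood at 382 and 102 CPM in them (CPM are counts on a gene scaled to library size) and at 0.896 to 6.11 CPM elsewhere. Part of the genotype contrast, sex and description stem therefore cannot be told apart. Wild type 2 and knockout 3 stood apart in another way. Their mature neutrophil scores, the mean log2 CPM of 19 genes such as Cxcr2 and S100a8, were 7.16 and 6.36, against 8.79 to 10.3 in the other libraries. The labels do not say whether each library is a different animal, so p-values measure only the spread among these 7 libraries, which may be technical. In bulk RNA, fewer cells of a type and less RNA per cell cannot be told apart.

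Where the genes lie and what precedes them is given first. Whether either bears on their levels in these libraries was not tested. In GENCODE M21 on GRCm38, 4 of the 10 protein-coding genes are on chromosome 9. Camp (109847379 to 109849617, minus strand), Ngp (110419747 to 110423012, plus strand) and Ltf (111019271 to 111042767, plus strand) follow each other within 1172 kb, and Mmp8 (7558456 to 7568485, plus strand) lies far from them. Lcn2 is on chromosome 2 (32384633 to 32388252, minus), Chil3 on chromosome 3 (106147554 to 106167564, minus) and Lyz2 on chromosome 10 (117277331 to 117282321, minus). Chromosome 7 holds Pglyrp1 (18871331 to 18890459, plus) and Cd177 (24743983 to 24760311, minus), and chromosome 15 holds Ly6g (75155240 to 75159126, plus). No annotated gene overlaps any of the 10 on either strand.

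The stretches before the start sites of 4 members that hold a C/EBP-type motif are printed below, with Lyz2 as a member without one. Each runs 5′ to 3′ on the strand of the gene, from RefSeq's sequence of GRCm38.p6, and ends before the RefSeq start or the first GENCODE start, whichever comes first. For Mmp8 the GENCODE start lies downstream of the RefSeq start. The window was the 250 bases before the RefSeq start. Capitals mark the motif TTNNGCAA or, on the other strand, TTGCNNAA.
Ltf, chr9:111019042-111019270: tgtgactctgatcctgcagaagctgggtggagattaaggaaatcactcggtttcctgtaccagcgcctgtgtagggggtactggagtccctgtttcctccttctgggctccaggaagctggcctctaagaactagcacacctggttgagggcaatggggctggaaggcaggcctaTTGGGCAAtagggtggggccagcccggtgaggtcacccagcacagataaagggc
Ngp, chr9:110419558-110419746: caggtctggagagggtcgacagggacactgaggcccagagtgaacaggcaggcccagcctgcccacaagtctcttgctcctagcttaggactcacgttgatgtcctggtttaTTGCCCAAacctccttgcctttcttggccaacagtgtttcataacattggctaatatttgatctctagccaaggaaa
Mmp8, chr9:7558179-7558428: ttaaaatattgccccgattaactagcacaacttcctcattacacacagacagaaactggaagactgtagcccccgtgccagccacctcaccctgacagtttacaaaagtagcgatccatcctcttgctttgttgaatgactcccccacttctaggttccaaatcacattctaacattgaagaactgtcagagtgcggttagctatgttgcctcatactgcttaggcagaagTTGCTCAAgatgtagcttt
Ly6g, chr15:75155011-75155239: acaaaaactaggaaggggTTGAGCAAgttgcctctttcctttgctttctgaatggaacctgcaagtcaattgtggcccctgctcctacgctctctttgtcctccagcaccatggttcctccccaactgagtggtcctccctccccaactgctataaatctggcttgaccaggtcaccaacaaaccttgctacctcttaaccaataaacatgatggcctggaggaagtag
Lyz2, chr10:117282322-117282522: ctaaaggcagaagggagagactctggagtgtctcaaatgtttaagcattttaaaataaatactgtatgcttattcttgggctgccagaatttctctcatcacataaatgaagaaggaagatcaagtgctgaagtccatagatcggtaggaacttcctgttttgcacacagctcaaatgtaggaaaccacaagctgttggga

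The motif was present in the windows of 5 members, Ltf, Ngp, Mmp8, Ly6g and Lcn2, out of 11 windows (Ly6g has a pair of overlapping windows, of which 1 holds it). Ngp held a second match that lies inside its GENCODE transcript and is not printed. The whole window of Lcn2 lies inside its GENCODE gene, so its match is not upstream of the annotated gene and is not printed. Of all 32817 distinct windows of the same length in the RefSeq table, 9.57% held it. The shorter letters GAGGAA, a core of PU.1 sites, or their complement were found in 7 of the 11 windows, those of Lcn2, Pglyrp1, Cd177, Mmp8, Ltf and both of Ly6g, against 23.3% of all windows. The window of Pglyrp1, like that of Lcn2, lies wholly inside its GENCODE gene. By their letters, matches of the 2 motifs cannot overlap. A match describes these letters only, and binding was not measured.

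The 10 genes together took 0.197% of all counts in wild type 1 (Wilson 95% interval 0.192 to 0.201%), 0.194% in knockout 1 (0.190 to 0.198%) and 0.177% in knockout 2 (0.172 to 0.182%). They took 0.0937% in wild type 4, 0.0552% in wild type 3, 0.0467% in knockout 3 and 0.0271% in wild type 2 (0.0258 to 0.0285%). Both genotypes thus held libraries with much and with little of this RNA. Lyz2 made up 25.8% of these counts in knockout 2 and 80.7% in knockout 3. Without Lyz2 the shares were 0.135, 0.0103, 0.0259 and 0.0248% in wild types 1 to 4 and 0.107, 0.131 and 0.00903% in knockouts 1 to 3. The intervals treat each read as an independent molecule and leave out differences between libraries. PCR reads without molecular identifiers are not independent, so the intervals may be too narrow even for counting error.

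**Figure D1:**
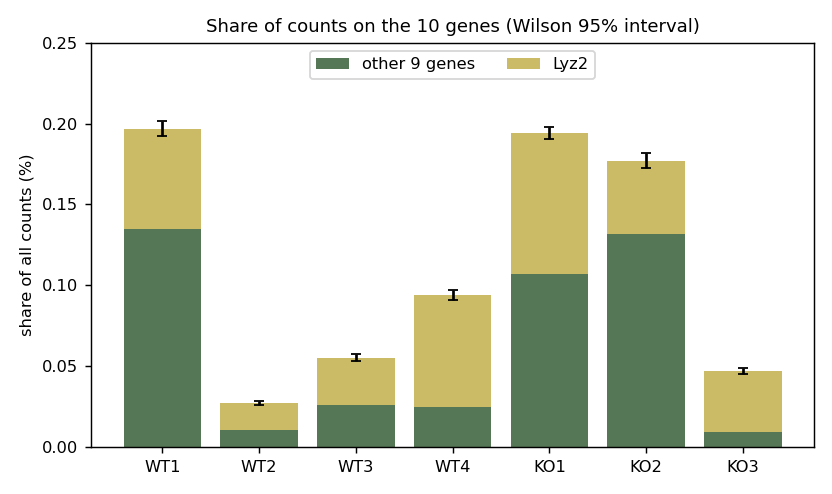
Share of all counts, in percent, that fell on Lyz2 and on the other 9 genes in each of the 4 wild-type (WT) and 3 knockout (KO) libraries. Bars are stacked and whiskers are Wilson 95% intervals of the sum. Wild type 1 and knockouts 1 and 2 lie between 0.177 and 0.197%, and the other 4 libraries at or below 0.0937%.

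None of the 10 genes passed the comparison of knockout with wild type, which asked whether loss of Alox15 goes with other transcript levels. In edgeR's quasi-likelihood test with Benjamini-Hochberg adjustment over all 12506 genes, 0 of 10 had an adjusted p under 0.05, and 0% of all genes did (adjusted p = 0.99995 for each member). At an unadjusted p under 0.05 the count was 0 of 10, against 1.23% of all genes. Fitted values were higher in knockout for 9 of 10 members, against 51.4% of all genes tested. The median log2 fold change was 0.62 over the members and 0.012 over all genes. For every member the knockout and wild-type libraries overlapped, whereas 3.13% of all genes had groups that did not overlap.

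Among the antimicrobial contents of the granule, Ltf encodes lactoferrin, which binds iron and keeps it from bacteria. It stood at 280, 11.7, 17.5 and 23.0 CPM in wild types 1 to 4 and at 222, 300 and 4.67 CPM in knockouts 1 to 3. Wild type 1 and knockouts 1 and 2 were high, the other 4 libraries low, and the highest and lowest library were both knockouts. The log2 fold change was 1.08 ± 1.33 (SE, edgeR unadjusted p = 0.438). Over the 7 libraries Ltf spanned 64.2-fold.

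Camp encodes the cathelicidin CRAMP, a membrane-damaging peptide. Its levels were 67.5, 1.72, 11.5 and 31.8 CPM in the wild types and 31.9, 54.5 and 3.12 CPM in knockout, so that wild type 4 was level with knockout 1. The group means were 28.1 ± 29.1 CPM (SD, n = 4) and 29.8 ± 25.8 CPM (SD, n = 3), and the log2 fold change was 0.089 ± 1.10 (SE). Ngp, neutrophilic granule protein, is a relative of the cathelicidins. It stood at 387, 22.7, 51.4 and 47.9 CPM in wild type and at 269, 323 and 8.96 CPM in knockout, with a log2 fold change of 0.65 ± 1.16 (SE). The same 3 libraries were high as for Ltf, and wild type 1 was the highest of them.

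Lcn2 encodes lipocalin 2, which captures the iron carriers that bacteria secrete. Its values were 340, 25.8, 78.5 and 59.3 CPM in the wild types and 271, 261 and 30.8 CPM in knockout. Wild type 1 lay above both high knockouts, and the log2 fold change was 0.58 ± 0.92 (SE). Epithelial cells can also make lipocalin 2, and of 5 epithelial markers Epcam had 0 counts in all 7 libraries while the 5 together reached at most 5.05 CPM. Pglyrp1 encodes a peptidoglycan recognition protein that binds bacterial cell walls. It was the 1 member with a lower fitted value in knockout (log2 fold change -0.77 ± 1.07, SE), at 37.9, 1.10, 13.5 and 17.5 CPM in wild types 1 to 4 and 10.7, 19.0 and 1.17 CPM in knockouts 1 to 3. Here knockout 1, high for most members, lay below wild types 3 and 4. Wild type 2 and knockout 3 rested on 7 and 6 counts.

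Lyz2 encodes lysozyme M, which cuts bacterial cell walls. Its levels were 669, 149, 291 and 712 CPM in the wild types and 888, 451 and 393 CPM in knockout, a span of 5.94-fold and the narrowest among the 10 members. Wild type 4, low for Ltf and Ngp, was among the high libraries for Lyz2. The log2 fold change was 0.34 ± 0.55 (SE), and without knockout 1 it was -0.11. Markers of monocytes and macrophages, which share Lyz2, are given beside it. Of 16 tested markers, 15 had higher fitted values in knockout (median log2 fold change 0.78), and their summed level was 265 to 786 CPM in wild type and 355 to 1873 CPM in knockout. Knockout 1 was highest in that sum as in Lyz2. Csf1r, the growth factor receptor of macrophages, had 32.7 to 229 CPM among the wild types and 43.4 to 180 CPM among the knockouts, and no defining marker was at 0 in all libraries. The part of these cells in the Lyz2 values was not tested.

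Of the enzymes and enzyme-like proteins, Mmp8 encodes neutrophil collagenase. It stood at 132, 21.8, 53.0 and 35.2 CPM in wild type and at 139, 148 and 15.0 CPM in knockout, with a log2 fold change of 0.74 ± 0.79 (SE). Knockouts 1 and 2 lay above every wild-type library and knockout 3 below every one. Chil3 encodes Ym1, a chitinase-like lectin without enzyme activity that myeloid precursors and some macrophages make. It had the largest fitted difference among the 10 (log2 fold change 1.90 ± 1.12, SE, edgeR unadjusted p = 0.125). Its counts were 137, 7, 18 and 18 in wild type and 167, 304 and 67 in knockout, or 40.9, 1.10, 3.58 and 4.77 CPM against 32.5, 93.1 and 13.05 CPM. Knockout 3 exceeded 3 of the 4 wild-type libraries for Chil3, although it was lowest of all 7 for Ltf, Ngp and Mmp8.

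The surface proteins were Ly6g, a GPI-anchored antigen used to identify mouse neutrophils, and Cd177, a GPI-anchored protein that binds the adhesion molecule PECAM-1. Ly6g stood at 64.5, 3.45, 10.5 and 10.9 CPM in wild type and at 66.7, 52.7 and 4.09 CPM in knockout (log2 fold change 0.89 ± 1.05, SE). Wild type 1 was level with knockout 1. For Cd177 the values were 99.8, 1.57, 16.3 and 26.2 CPM in the wild types and 49.96, 48.4 and 13.2 CPM in knockout. Its means of 36.0 ± 43.7 CPM (SD, n = 4) and 37.2 ± 20.8 CPM (SD, n = 3) were close, with a log2 fold change of 0.056 ± 1.02 (SE).

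**Figure D2:**
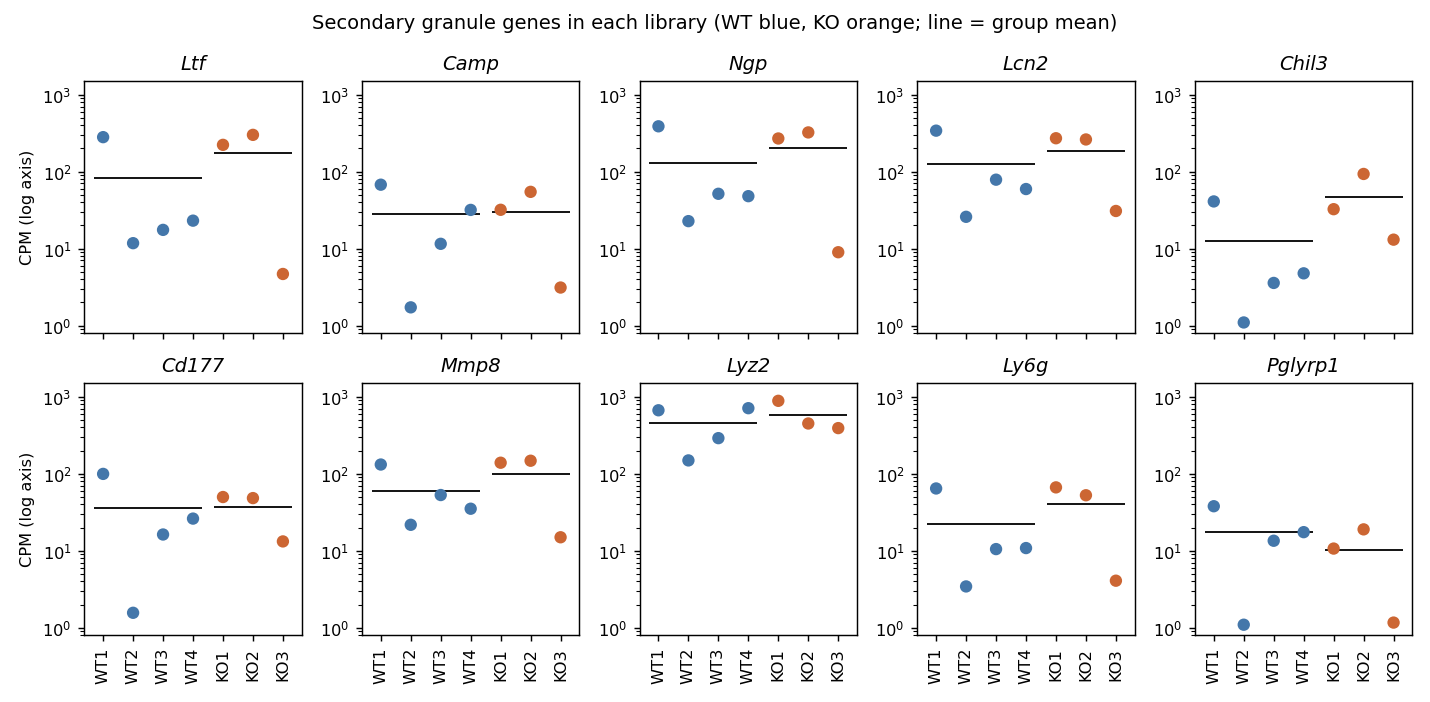
Level of each gene in CPM, on a log axis, in the 4 wild-type (WT, blue) and 3 knockout (KO, orange) libraries, with a line at each group mean. Wild type 1 and knockouts 1 and 2 are the 3 highest libraries for 8 of the 10 genes, all but Lyz2 and Pglyrp1.

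Sequence shared with other genes bears on how tags were assigned. In the last 500 bases of the annotated transcripts, no stretch of 50 bases of Ltf, Camp, Ngp, Lcn2 or Mmp8 recurred in another gene. For Lyz2, 16.9% of such stretches recurred in Lyz1, its near copy in the gut, which had 3 to 36 counts per library. For Chil3, 17.8% recurred in Chil4 or Gm6522, and both had 0 counts in all 7 libraries. For Cd177, 17.0% recurred in BC049730 or Gm4763. BC049730 had 593, 21, 124 and 30 counts in wild type and 595, 448 and 23 in knockout, so the split between it and Cd177 is uncertain. Ly6g shared 0.297% with Ly6i, and Pglyrp1 shared 2.16% with many genes.

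For all 10 members the group means differed by less than the larger of the group SDs. For Ltf the wild-type mean was 83.1 ± 131 CPM (SD, n = 4) and the knockout mean 176 ± 153 CPM (SD, n = 3). On the log2 CPM scale with a prior count of 2, the range over the 7 libraries was 5.93 for Chil3, 5.88 for Ltf and 5.65 for Cd177, against a median range of 1.73 over all genes tested. These ranges were wider than those of 99.3, 99.3 and 99.0% of tested genes. Lyz2 had a range of 2.57, wider than 70.5% of genes. Knockouts 1 and 2 each lay above every wild-type library for 3 members (Mmp8, Lyz2 and Ly6g in knockout 1, and Ltf, Chil3 and Mmp8 in knockout 2). Knockout 3 lay below every wild-type library for Ltf, Ngp and Mmp8, and for the other 7 it was inside the wild-type range. Among the 5 libraries of 1 description stem, knockout 1 was thus inside the wild-type range for 7 members. Knockouts 2 and 3 have a stem of their own. With the stem as a covariate, the genotype term therefore rests on knockout 1 alone against the wild types. In that fit 9 of 10 members had higher fitted values (median 1.10, against -0.027 over all genes).

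The fitted values moved with single libraries. Without wild type 1, the log2 fold changes were 3.27 for Ltf, 3.85 for Chil3, 2.27 for Ly6g, 2.24 for Ngp and 1.74 for Lcn2. In that fit Ltf, Lcn2, Chil3 and Ly6g had unadjusted p-values of 0.0180, 0.0439, 0.00138 and 0.0335 in edgeR, where 2.49% of genes were under 0.05. None passed after adjustment over all genes (adjusted p = 0.9998). Without knockout 2 the value was 0.45 for Ltf, 0.13 for Ngp and 0.87 for Chil3. Camp and Cd177 took negative values in several of these fits. Without wild type 2 and knockout 3 together, 9 of 10 members again had higher fitted values, with a median of 0.77, against -0.039 over all genes.

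**Figure D3:**
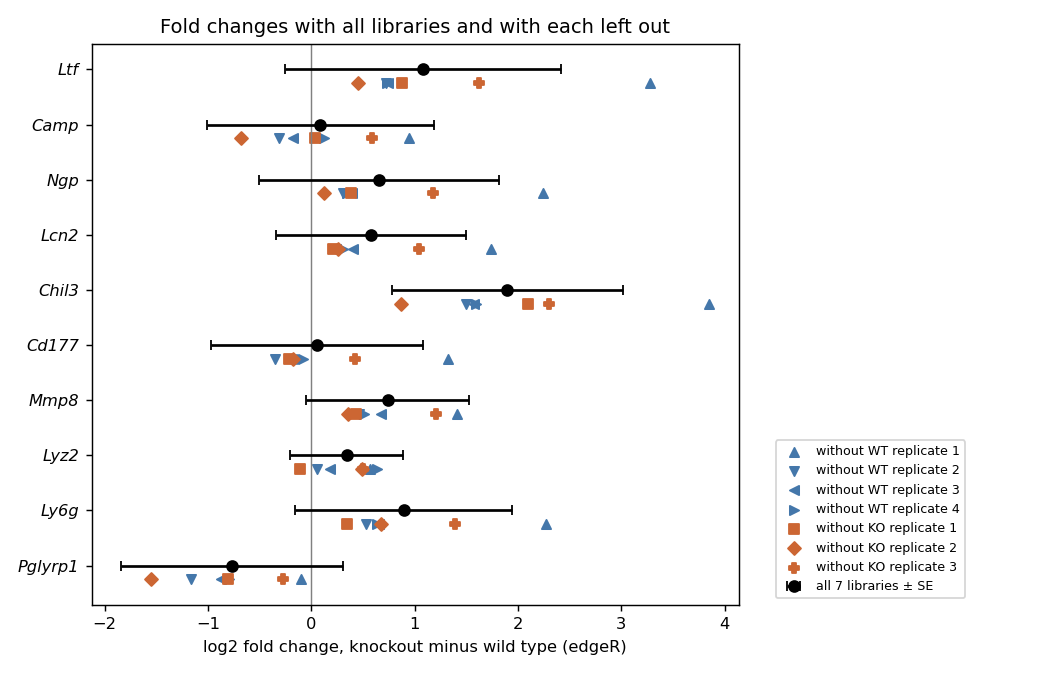
Log2 fold change of each gene, knockout minus wild type, from edgeR. Black points with whiskers give the fit to all 7 libraries ± SE, and coloured points below them the fits without 1 library (blue, a wild type left out; orange, a knockout). Leaving out wild type 1 gives the highest value for 9 of the 10 genes, all but Lyz2.

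The 3 libraries high for most members were also high for many mature neutrophil genes. Wild type 1 and knockouts 1 and 2 were the 3 highest for 8 of 10 members, for 14 of 19 mature neutrophil genes and for 12.5% of all genes tested. The pattern was thus shared with mature neutrophil genes, and it was noticed in the same data. S100a9, a subunit of calprotectin, stood at 11610, 1107, 5038 and 3519 CPM in the wild types and 11820, 6726 and 735 CPM in knockout. In wild types 3 and 4 it was below knockouts 1 and 2, as Ltf was. Cxcr2, one of the 5 mature neutrophil genes without this pattern and a chemokine receptor of mature neutrophils, stood at 382 and 686 CPM there and at 461 and 552 CPM in knockouts 1 and 2. In the same libraries Ltf was at 17.5 and 23.0 CPM against 222 and 300 CPM.

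Each member was also set against the mature neutrophil score of its own library, as log2 CPM minus that score. For Lcn2 the difference was -1.85, -2.45, -2.77 and -2.89 in wild type and -1.80, -1.39 and -1.40 in knockout. Ly6g stood at -4.24, -5.21, -5.62 and -5.29 in wild type and at -3.82, -3.70 and -4.19 in knockout. Chil3 stood at -4.89, -6.55, -7.07 and -6.41 in wild type and at -4.85, -2.88 and -2.61 in knockout. In these 3 members every knockout lay above every wild type, by only 0.048 for Lcn2, 0.053 for Ly6g and 0.044 for Chil3 between the nearest libraries, with wild type 1 the nearest each time. Among all genes tested, 0.496% had knockouts above every wild type on this scale. No other member separated the groups, and Pglyrp1 was on average 0.38 lower in knockout. The mean difference was higher in knockout for 9 of 10 members and for 75% of all genes, and the score itself was lowest in knockout 3.

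With the mature neutrophil score as a covariate in edgeR, the log2 fold changes were 2.84 ± 0.74 (SE) for Chil3, 1.199 ± 0.35 for Ly6g, 0.93 ± 0.28 for Lcn2 and 0.73 ± 0.27 for Mmp8. Their unadjusted p-values were 0.00413, 0.00410, 0.00557 and 0.0163, and 3.35% of all genes were under 0.05 in this fit. After adjustment over all genes none passed (adjusted p = 1.00 for each). The values for Ltf and Ngp were 1.31 ± 0.62 and 0.77 ± 0.38 (SE), and Pglyrp1 had -0.47 ± 0.55.

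**Figure D4:**
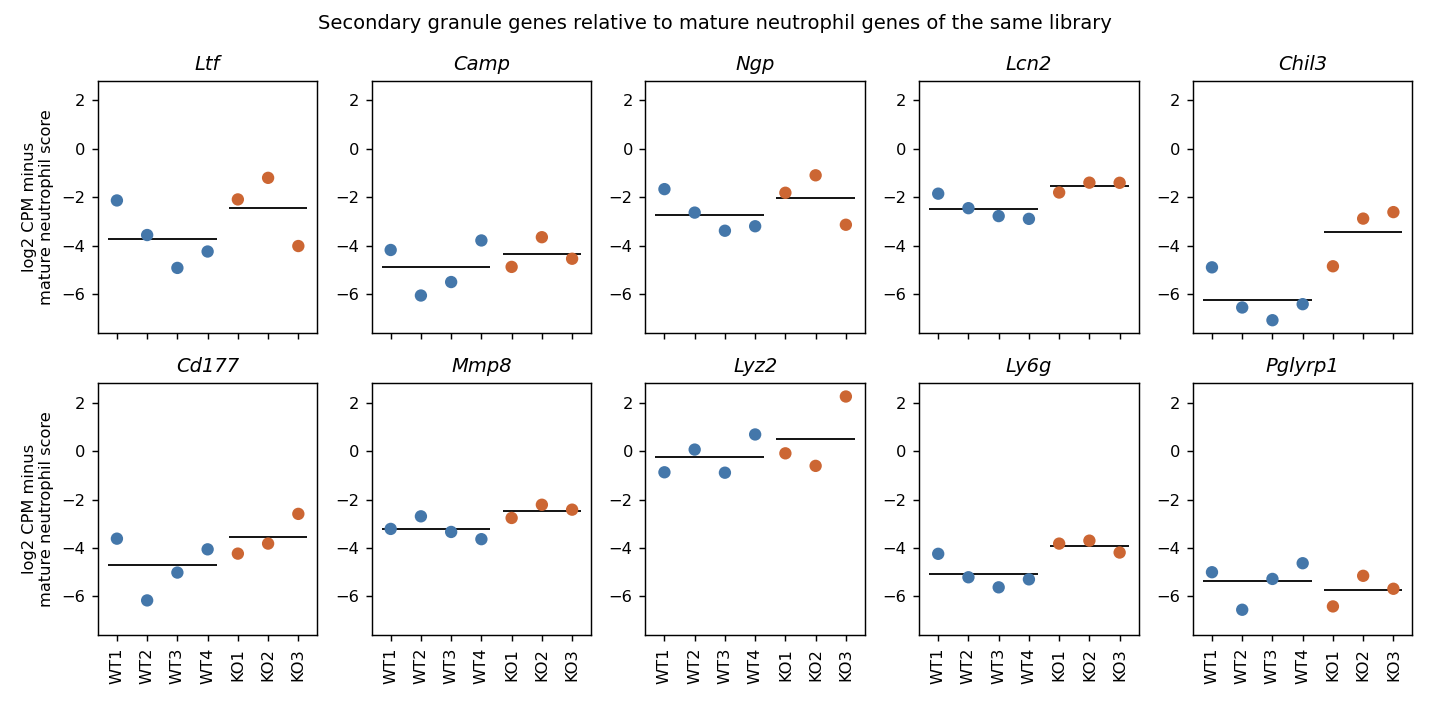
Log2 CPM of each gene minus the mature neutrophil score of the same library, in the wild-type (WT, blue) and knockout (KO, orange) libraries, with a line at each group mean. For Lcn2, Chil3 and Ly6g the 3 knockouts lie above the 4 wild types, with wild type 1 the nearest.

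Other genes of the same developmental stage did not pass either. Of 20 further specific granule and late precursor genes, 17 were tested, 11 had higher and 6 lower fitted values in knockout, and 0 passed (median log2 fold change 0.19, below the 0.62 of the members). Among the lower ones, Slpi, a protease inhibitor, had -0.25 ± 0.81 (SE) and Chil1, a chitinase-like protein, -0.17 ± 0.82. Cybb, the large subunit of the phagocyte oxidase that sits in the specific granule membrane, had 12.5 to 134 CPM among the wild types and 15.2 to 183 CPM among the knockouts, with a log2 fold change of 0.97 ± 0.90 (SE). Ceacam10 had 0.75 ± 0.90. Tcn2, which encodes transcobalamin 2, had 0.63 ± 0.90. Serpinb1a, an inhibitor of neutrophil proteases, differed little between libraries, at 30.7 to 63.3 CPM in wild type and 46.1 to 60.8 CPM in knockout. Fcnb, which encodes a ficolin, had 3 and 12 counts in knockouts 1 and 2 and 0 elsewhere, and was too low to be tested. Over the 4 wild types, 0 of 18152398 counts allows up to 0.165 CPM.

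Primary granule genes belong to the preceding promyelocyte stage, and of 12 listed 5 passed the filter on low counts. The list summed to 262 to 1597 CPM per library, with Srgn, a granule proteoglycan of many leukocytes, at 107 to 1295 CPM. Several defining genes of these granules were near or at 0. Elane (neutrophil elastase), Ms4a3 and Bpi had 0 counts in all 7 libraries, Mpo (myeloperoxidase) had 2 in wild type 1 and 5 in knockout 2, Ctsg had 1 in knockout 2, and Prtn3 had at most 5 in a library. The limit of 3 counts that a 0 allows came to 0.470 to 0.919 CPM, depending on the library. Of the 5 tested genes of the list, 3 had higher and 2 lower fitted values, and 0 passed (median 0.36). Among them, Ctsc, the activating protease of the granule enzymes, had 0.71 ± 0.70 (SE) and Prss57 0.36 ± 0.41.

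The factors that drive granule gene transcription did not pass either. Of 12 tested members of a list of granulopoiesis regulators, 7 had higher and 5 lower fitted values (median 0.042). Cebpe, which encodes C/EBP epsilon, had 7, 2, 12 and 5 counts in wild type and 48, 2 and 2 in knockout, too few to be tested. Its high library was knockout 1 only, whereas Ltf was high in wild type 1 and knockout 2 too. Cebpa, a factor of earlier myeloid cells, had a log2 fold change of 0.78 with an SE of 0.67, Lmo4 0.47 ± 0.27 and Junb -0.65 ± 0.86. Of 19 tested mature neutrophil genes, 9 had higher and 10 lower fitted values (median -0.018).

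Sequence relatives of the members were measured for comparison. Of 10 tested relatives, 8 had higher and 2 lower fitted values (median 0.16) and 0 passed. Ly6i, a relative of Ly6g that macrophages can express, gave -0.87 ± 1.12 (SE) on the log2 scale, and Pglyrp2 1.43 ± 1.28 at 0 to 8.37 CPM.

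Markers of other cells were present to different degrees. The 12 T cell and thymocyte markers summed to 497 to 1111 CPM in wild type and 566 to 1521 CPM in knockout, highest in knockout 3, where Ltf, Ngp and Mmp8 were lowest. Cd3d, a part of the T cell receptor, stood at 441 CPM there and at 93.5 CPM in wild type 1. Cd2, Cd4, Lck and Thy1 were also highest in knockout 3, while Cd3e, Cd3g, Cd5, Lef1, Cd8b1 and Rag1 were not. Cd3e stood at 130 CPM in knockout 3 and at 137 CPM in wild type 4. Of the 11 tested, 8 had higher and 3 lower fitted values (median 0.13). The 6 B cell markers summed to 120 to 461 CPM in wild type and 225 to 354 CPM in knockout, with 5 higher and 1 lower (median 0.59). Of 8 eosinophil and basophil markers, Epx, Mcpt8 and Fcer1a had 0 counts in all libraries, and the sum was 14.9 to 27.1 CPM in wild type and 7.60 to 27.2 CPM in knockout. That sum joined unlike patterns. Cpa3 was highest in wild type 2, at 24.7 CPM. Siglecf stood at 0.63 CPM there and at 11.4 CPM in wild type 1 and 10.3 CPM in knockout 1. The part of these other cells in the member values was not tested.

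The genes outside the list whose pattern over the 7 libraries was most like the members' mean log2 CPM, each gene centred, were Trim25, Clec4a2, Eif4e3, Ist1, Glipr2 and Ifitm6. They came from 8317 candidates outside the list whose log2 CPM averaged 3 or more. Genes with clone-like, Gm, Rik or pseudogene symbols were left out of the candidates. For the genes named, Pearson r was 0.998, 0.996, 0.994, 0.993, 0.991 and 0.991 (n = 7 libraries, a description since all genes share the libraries). Without wild type 2 and knockout 3 the values were 0.973 to 0.995. Clec4a2, a C-type lectin receptor of myeloid cells, stood at 69.3, 7.36, 20.3 and 21.2 CPM in the wild types and 62.2, 57.3 and 9.15 CPM in knockout. Ifitm6 was itself on the list of late precursor genes, with a log2 fold change of 0.29 ± 0.95 (SE). Trim25, a ubiquitin ligase, followed the members over a narrow span of 61.7 to 167 CPM.

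Within the members, Ly6g and Lcn2 were closest to the mean of the other 9 (r = 0.983 and 0.982, n = 7) and Lyz2 farthest (r = 0.725). Leaving out wild type 2 and knockout 3, the r of Ltf and Ngp was 0.989 and 0.987, that of Lyz2 0.422 and that of Pglyrp1 0.400. These last were the lowest r of the 10 members over the remaining 5 libraries.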

How the data were processed

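RNA from 7 libraries was made into 3′ tag libraries with a QuantSeq kit, per the labels' protocols. The authors deposited whole-number counts per Ensembl gene. RSEM 1.2.3, DESeq2 and mm10 are named in the submitters' processing notes with no role for each, so the counts may be rounded estimates. The sources used here do not give the annotation release, the strand setting or the rule for reads matching several genes. Of 51789 genes, 51596 matched a symbol of GENCODE M21.

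Groups came from the labels. Knockout was compared with wild type in edgeR 4.0.16 (R 4.3.3), with filterByExpr, TMM scaling and a robust quasi-likelihood F test. P-values were adjusted by Benjamini-Hochberg over 12506 genes and called under 0.05. CPM uses TMM library sizes, log2 CPM a prior count of 2, and SE comes from the F test.

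The members and lists were chosen with earlier results of these data known. All members are named, with up to 4 genes of each other list by smallest unadjusted p, defining markers, and the 6 genes most like the members. S100a9, Cxcr2, Serpinb1a, Slpi, Chil1, Srgn, Fcnb, Cebpe, the primary granule genes near 0 and the genes sharing transcript ends were named after their values were seen. So were the T cell markers other than Cd3d. The comparison with the mature neutrophil score by library and the count of highest libraries were also added then.

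Alternatives were DESeq2 1.42.0, limma-voom (limma 3.58.1) with quality weights, upper-quartile or RLE factors, another filter (none, or 5 CPM in 3 libraries), leaving out libraries, a replicate block, and the description stem or mature neutrophil score as a covariate. The test was checked on simulated counts.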

Additional observations from a re-analysis of the deposited data

Results flagged for a closer look

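Within wild type, 5 members had 1 library far above the other 3 by Dixon's test, and it was wild type 1 each time: Ltf at 280 CPM, Ngp at 387 CPM, Lcn2 at 340 CPM, Chil3 at 40.9 CPM and Ly6g at 64.5 CPM. The gap to the next library was 0.958, 0.921, 0.833, 0.908 and 0.879 of the range; each exceeds the 95% critical value for 4 libraries. The ratio was taken on CPM, so the flags hold for that scale only, and log2 CPM was not tested. The rate of about 1 flag in 20 groups by chance assumes normally distributed values, which was not checked. The 10 members are not independent, and the 3 knockouts are too few for the test.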

How the results depend on the processing

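No member passed the threshold in any of the 17 alternatives, and Ltf, Ngp, Lcn2, Chil3, Mmp8 and Ly6g kept a positive log2 fold change in all of them. Over the alternatives the value ran from 0.45 to 3.27 for Ltf, from 0.0083 to 2.24 for Ngp, from 0.21 to 1.74 for Lcn2, from 0.87 to 3.91 for Chil3, from 0.30 to 1.41 for Mmp8 and from 0.35 to 2.27 for Ly6g. Sign changes came mainly from leaving out 1 library, which gave -0.68 to 0.95 for Camp, -0.35 to 1.32 for Cd177 and -0.11 to 0.64 for Lyz2. Pglyrp1 stayed negative in these fits, at -1.55 to -0.10. Limma-voom with quality weights turned Pglyrp1 to 0.36, and there all 10 members were positive with a median of 1.70. Over all genes in that fit, 53.3% were positive and the median was 0.045. Unadjusted limma-voom p-values were under 0.05 for 4 of 10 members, against 4.27% of all genes, and 0 members passed after adjustment. Why this fit differed from the others was not tested. The number of members with a higher fitted value was 7 to 9 when 1 library was left out. DESeq2 called 1 gene, the pseudogene Impdh2-ps, where edgeR called 0 with 154 at an unadjusted p under 0.05 and limma-voom called 0 with 534.

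For same-numbered libraries, deviations from their group means correlated at r = 0.35, -0.22 and -0.18. With so few libraries per group these values cannot decide whether the numbers pair the samples. With the replicate number as a block, 0 genes were called, 80 were at an unadjusted p under 0.05, and 9 of 10 members had a higher fitted value. The median log2 fold change of the members was then 0.42, against -8.1e-05 over all genes. Low counts limited Pglyrp1, Camp, Cd177 and Chil3 in wild type 2, with 7, 11, 10 and 7 counts.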
